A study of Mus musculus with 26 samples.

Results

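Amacrine cells are interneurons of the inner retina, most of them inhibitory. The cells described here were chosen by the signals of 2 genes and carried transcript of either reelin (Reln) or the POU homeodomain factor Pou3f3 (also called Brn-1). Of 26 single mouse amacrine cells, 5 had Reln detected without Pou3f3 and are called the Reln cells, and 5 had Pou3f3 detected without Reln and are called the Pou3f3 cells. The other 16 had neither gene and 0 had both. A gene counts as detected at a MAS5 signal of 1000 or more, and each gene is read from 1 probe set, the one whose log2 signals average highest across the 26 cells. Signals under 200 were set to 200 (7.64 on the log2 scale) before logs were taken.

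Per the series' design, newborn (P0) mouse retinas had been electroporated with a GFP reporter under the Ndrg4 or the Synapsin promoter, single GFP-positive cells were drawn up from dissociated retinas, and their cDNA was amplified over 35 PCR cycles and hybridised to Affymetrix Mouse 430 2.0 arrays. All 10 cells on both sides carried pNdrg4, so neither side holds a pSynapsin cell, a P8 cell or an E19 cell. The 7 pSynapsin cells, 1 of them labelled E19, were all among the 16 with neither gene. The Reln cells were P5 A1, A7 and A8 (no culture stated), P5 C6 (cultured 5 days) and P4 A3 (cultured 4 days). The Pou3f3 cells were P5 A2, A5, A6 and B2 (no culture stated) and P4 B4 (cultured 4 days). Signals below are given in these orders, as Reln cells and then Pou3f3 cells. The labels name no animal, strain or sex and no allele beyond the electroporated reporter. Since no label ties a cell to an animal or culture, each side counts as 1 sample, and differences are given by size with no test.

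Reelin is a secreted glycoprotein that binds the lipoprotein receptors Vldlr and Lrp8 (ApoER2) on a target cell and acts there through phosphorylation of the adaptor Dab1 by Src family kinases. In the retina it is made by subsets of neurons in the inner layers. Pou3f3 is a class III POU transcription factor of developing neurons whose locus also gives rise to the long noncoding RNA Pantr1.

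The 250 bases before the annotated start of each defining gene are shown because these are the promoters that set the sides apart by name. They come from RefSeq (GRCm38.p6), 5′ to 3′ on the gene's own strand, Reln at chr5:22344706-22344955 on the minus strand and Pou3f3 at chr1:42695518-42695767 on the plus strand. Capitals mark GGGCGG (GC box) in Reln and CCAAT in Pou3f3.
Reln: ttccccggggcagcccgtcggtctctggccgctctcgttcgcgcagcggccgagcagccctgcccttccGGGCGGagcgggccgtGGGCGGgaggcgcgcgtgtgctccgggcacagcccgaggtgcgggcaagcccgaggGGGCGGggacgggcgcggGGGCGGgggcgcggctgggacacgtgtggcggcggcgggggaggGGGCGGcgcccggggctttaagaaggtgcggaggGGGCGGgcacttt
Pou3f3: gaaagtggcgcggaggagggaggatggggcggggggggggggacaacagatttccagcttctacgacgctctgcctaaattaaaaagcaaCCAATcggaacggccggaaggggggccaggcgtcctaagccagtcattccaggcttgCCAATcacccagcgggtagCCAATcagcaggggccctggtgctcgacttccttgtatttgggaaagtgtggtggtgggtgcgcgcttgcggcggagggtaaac
The Reln window held 6 GGGCGG matches, 37 CG dinucleotides and 80% G+C, against a median of 6 CG and 52% G+C over the windows of 27025 genes. The Pou3f3 window held 3 CCAAT matches, 1 GGGCGG match, 15 CG and 60.8% G+C. Counted on either strand, GGGCGG occurred in 32.9% of the 27025 windows and CCAAT in 34.5%. Neither window held TATAAA (13.0% of windows) or the POU octamer ATGCAAAT (1.61%). These matches are letters in the reference sequence and were not tested as binding sites. Pantr1 was not matched to a promoter.

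The values that chose the cells lay far from the detection level. Reln signals were 27758, 35111, 26350, 13083 and 8186 in the Reln cells and 47 to 151 in the Pou3f3 cells. Pou3f3 signals were 27994, 20098, 8577, 25562 and 35870 in the Pou3f3 cells and 59 to 236 in the Reln cells. The weakest Reln cell, P4 A3 at 8186, stood against a highest signal of 151 among all cells without detection, and the weakest Pou3f3 cell, P5 A6 at 8577, against 253. A second probe set exists for each gene and was not detected in any of the 26 cells, with highest signals of 83.0 for Reln and 408 for Pou3f3. Each side made up 19.2% of the cells (exact 95% Clopper-Pearson interval 6.55 to 39.4%). The count of 0 cells with both allows a share of up to 11.5%, as 3 counts of 26, or 13.2% by the exact 95% interval. These limits cover counting error only.

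**Figure D1:**
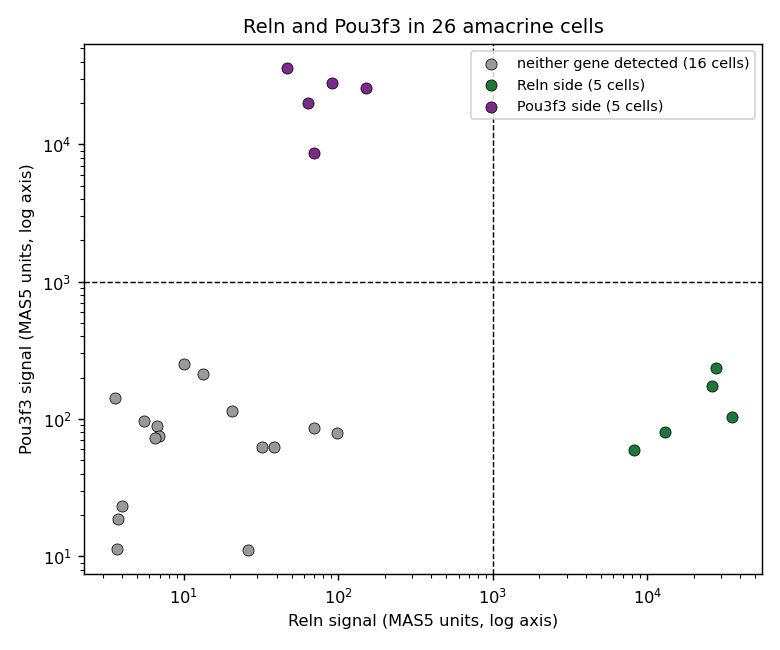
Signal of Reln (x axis) against Pou3f3 (y axis) in 26 single cells, in MAS5 units on log axes, with dashed lines at the detection level of 1000. The 5 Reln cells lie at 8186 or more on the x axis, the 5 Pou3f3 cells at 8577 or more on the y axis, and the other 16 cells lie below both lines.

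The amacrine label was checked against its markers. Pax6 and Tfap2b, factors of amacrine cells, were detected in all 10 cells, and Tfap2a in 9, with P5 A7 at 764. Of the 71 amacrine factors measured, 11 to 22 were detected in a Reln cell and 13 to 17 in a Pou3f3 cell, and 35 were detected in none of the 10. Barhl2, an amacrine subtype factor, was detected in 2 Reln cells and 3 Pou3f3 cells. Genes of other retinal cells were also detected. Of 20 rod genes, 1 to 4 were detected in a Reln cell and 2 to 6 in a Pou3f3 cell, with summed signals of 20534 to 61212 and 30099 to 80255. Crx was detected in 2 Reln cells and 2 Pou3f3 cells, while Gnat1, Gngt1, Pde6a, Pde6b, Rp1, Rcvrn and Prph2 were detected in none of the 10. Of 16 Müller glia genes, 1 to 5 were detected in a Reln cell and 2 to 10 in a Pou3f3 cell, the 10 being in P5 A6, with summed signals of 7846 to 78309 and 19743 to 111820. Glul was detected in 4 Reln and 4 Pou3f3 cells, Dkk3 in 3 and 3, and Clu in 2 and 0. Apoe, Aqp4 and Sox9 were detected in none of the 10. Of 12 bipolar genes, 0 to 1 were detected in a Reln cell and 0 to 2 in a Pou3f3 cell. For 9 horizontal cell genes the ranges were 0 to 2 and 1 to 2, and for 16 ganglion cell genes 1 to 2 and 0 to 2. For 21 progenitor and cell cycle genes they were 1 to 4 on each side. P5 A6 also carried Nrl (24495) and Pde6g (8145). The part of these transcripts in the differences below was not tested. Detected genes per cell numbered 1966 to 3925 (median 2583) in the Reln cells, 1909 to 2610 (median 2432) in the Pou3f3 cells and 2046 to 4180 (median 3422) in the other 16.

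Over the 8568 genes that reached detection in 2 or more of the 26 cells, without Reln and Pou3f3, the Reln side held more of the large differences. The difference used throughout is the mean log2 signal of the Reln cells minus that of the Pou3f3 cells, so a positive value means higher in the Reln cells. A difference of 2 or more (4-fold) was reached by 566 genes (6.61%) in the direction of the Reln cells and by 326 (3.80%) in that of the Pou3f3 cells. The median over all genes was 0.09. The counts rest on the floor: they were 1140 and 630 with a floor of 50, and 232 and 144 with a floor of 500. Without P5 A6 they were 624 and 402, and without both P5 A6 and P5 C6, the 1 cell cultured for 5 days, 671 and 545. Over P5 cells with no culture stated they were closer to each other, 775 and 659, and the median over all genes was 0. P5 C6 (3925) and P4 A3 (3418), both Reln cells, had the most genes detected of the 10 cells. Their part in the counts was not tested. Of all 8568 genes, 53.2% were higher by any amount in the Reln cells and 40.9% in the Pou3f3 cells, and these shares are the background for the gene groups below. Of 82 named genes past a difference of 2, 52 stayed past it whichever cell was left out. Most were named for wide differences in these same cells, so these counts describe the named genes alone. Of the 82, 29 fell under a difference of 2 with a floor of 500, 12 by medians over cells and 10 over P5 cells with no culture stated. The 12 were Nfia, Chgb, Cabp1, Kcnj9, Kcnab1, Cacna1a, Scn3a, Sema6a, Tubb3, Cngb1, Prkca and Pdk1.

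**Figure D2:**
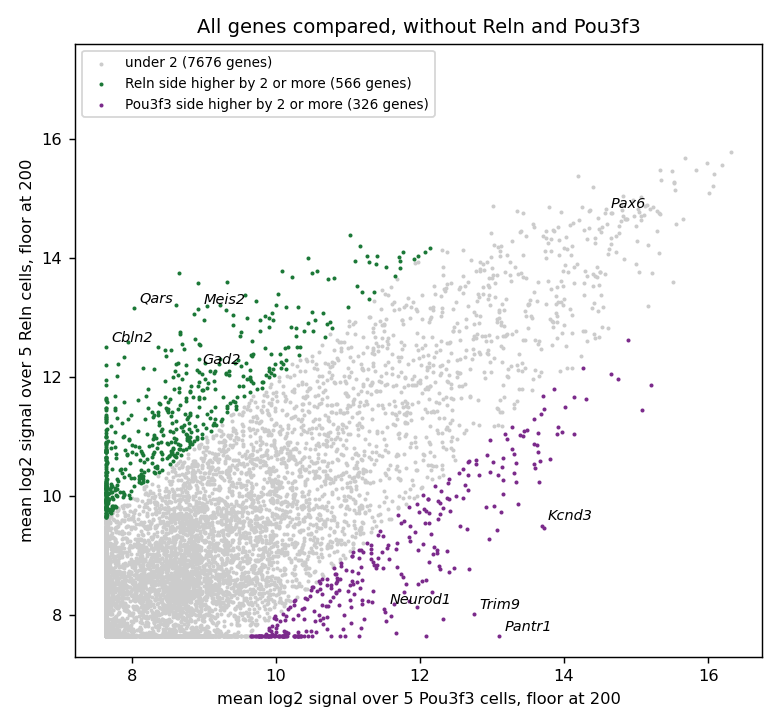
Mean log2 signal over the 5 Pou3f3 cells (x axis) against that over the 5 Reln cells (y axis), 1 point per gene for 8568 genes, floor at 200. Green points are the 566 genes higher by 2 or more in the Reln cells, purple points the 326 higher in the Pou3f3 cells, and Pax6 lies near the diagonal among the highest signals.

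By detection, a gene was counted as split when it was detected in all cells of a side but at most 1, and in at most 1 cell of the other side. This held for 178 genes (2.08%) on the Reln side and 47 (0.549%) on the Pou3f3 side. After quantile normalization of the arrays the counts were 142 and 108, without P5 A6 they were 263 and 129, and without P5 C6 and P5 A6 they were 394 and 234. Leaving out any 1 cell also lets the criterion pass more genes, and gave 228 to 449 and 61 to 129. The Reln count moved by over 1.5 times without P5 A1, A7, A8, C6, P4 A3 or P4 B4, and the Pou3f3 count without any 1 of P5 A1, C6, A2, A5, A6, B2, P4 A3 or P4 B4. The split genes were mostly not restricted to the sides. Those of the Reln side were detected in a median of 8 of the 16 other cells and those of the Pou3f3 side in a median of 7.

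A complete split, detected in all 5 cells of a side and in 0 of the other, held for 6 genes (0.0700%) on the Reln side and 1 (0.0117%) on the Pou3f3 side. Leaving out 1 cell gave 8 to 17 and 1 to 6 such genes (10 and 6 without P5 A6), and a detection level of 2000 gave 1 and 0. The Reln count moved by over 1.5 times without P5 A1, A7, A8, A2, A6 or P4 B4, and the Pou3f3 count without P5 A1, A8, A2, A5, A6, B2, P4 A3 or P4 B4. Qars, the glutaminyl-tRNA synthetase, had signals of 14407, 6493, 9252, 6048 and 12296, against 740 in P5 B2 and below 200 in the other Pou3f3 cells (difference 5.14). The mean log2 signals were 13.16 ± 0.55 and 8.02 ± 0.84 (SD over 5 cells each), and the sides did not overlap, but the median over its 4 probe sets gave 2.44. Xbp1, a transcription factor of the unfolded protein response, had signals of 15015, 6746, 13595, 1241 and 2145, against 468 in P5 A2 and below 200 in the rest (4.44). P5 C6 and P4 A3 were the lower Reln cells for Xbp1, and 3 further probe sets of the gene gave 2.93 to 3.75. Flywch2 had signals of 4842, 8948, 16609, 8610 and 1441, against 56 to 441 (4.65), and its other probe set repeated the 5 against 0.

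Ipo9, a nuclear import receptor, ranged from 1694 in P4 A3 to 19509 in P5 A7 and from 21 to 357 in the Pou3f3 cells (4.42). Its other probe sets gave 3.72 and -1.36. Cyfip2, a partner of the fragile X protein in the WAVE actin complex, had signals of 7988, 1246, 1843, 4784 and 4268, against a highest Pou3f3 cell signal of 835 in P5 A5 (3.48). The other Cyfip2 probe sets gave 0 and 0.13 and were detected in none of the 10 cells. Jam3, a junctional adhesion molecule, had signals of 1427, 2813, 5382, 1029 and 1101 and stayed at 75 or less in every Pou3f3 cell (3.24). Jam3 was also the rarest of the 6 elsewhere, detected in 2 of the 16 other cells, although 3 of its Reln cells lay close above the detection level. Its difference was 5.13 with a floor of 50 and 1.92 with a floor of 500, and its second probe set was detected in none of the 10 cells. Trim9, a neuronal E3 ubiquitin ligase of axon guidance, was the complete split of the Pou3f3 side. Its signals were 11634, 1474, 44675, 16896 and 1169, against 731 in P5 A7 and at most 85 in the other Reln cells (-4.73). Its mean log2 signals were 8.02 ± 0.84 in the Reln cells and 12.74 ± 2.29 in the Pou3f3 cells. Among its 3 other probe sets the differences were -4.49, -4.06 and 0.15, the first detected in 5 Pou3f3 cells and 0 Reln cells.

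**Figure D3:**
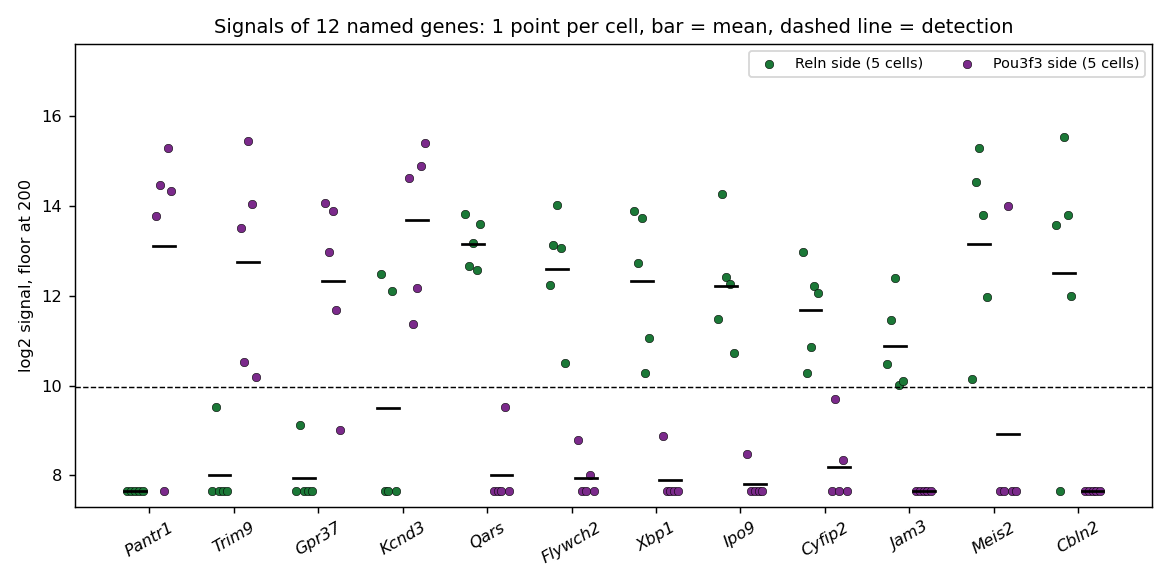
Log2 signal (y axis, floor at 200) of 12 named genes (x axis) in the 5 Reln cells (green) and the 5 Pou3f3 cells (purple), 1 point per cell, with a bar at the mean and a dashed line at the detection level, a signal of 1000. Qars, Flywch2, Xbp1, Ipo9, Cyfip2, Jam3 and Trim9 have the sides on opposite sides of the line, whereas for Pantr1 and Meis2 the Pou3f3 cell P5 A6 lies on the same side of the line as the Reln cells.

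Other split genes of the Reln side had wide differences with 1 cell out of place. Cbln2, a secreted synapse organiser that bridges neurexins and postsynaptic receptors, had signals of 12176, 47190, 14245 and 4091 in P5 A1, A8, C6 and P4 A3, and below 200 in P5 A7 and in every Pou3f3 cell (4.86). Ufc1, the conjugating enzyme of the ubiquitin-like UFM1, was at 3726 to 30554 in the Reln cells and was detected in P4 B4 (6468) among the Pou3f3 cells (5.11). Dnpep, an aspartyl aminopeptidase, was likewise present in all Reln cells (1858 to 66258) and in P4 B4 (5118), with a difference of 4.67. Hacd1, of very long chain fatty acid elongation, was detected in every Reln cell except P5 A8 and in 0 Pou3f3 cells (4.56). Ralyl, an RNA-binding protein gene, was detected in every Reln cell except P5 A7 and in 0 Pou3f3 cells (4.30). Cdv3 (4.60) and Ppp1r18 (4.23) also split, but Pnisr (4.27) depended on its probe set: the median over its probe sets gave -1.53.

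On the Pou3f3 side the widest split belonged to Pantr1, the noncoding RNA whose gene is among the neighbours of Pou3f3 in the RefSeq order, with 1 other noncoding gene between them. Pantr1 signals were below 200 in every Reln cell and 13987, 22591, 44, 39691 and 20604 in the Pou3f3 cells (-5.45). P5 A6, the cell with the weakest Pou3f3 signal, lacked it, and it was detected in 0 of the 16 other cells. The other class III POU genes Pou3f1, Pou3f2 and Pou3f4 were detected in 0 of 26 cells. Pou6f1, the 1 other POU gene compared, had signals of 2903, 775, 198, 2386 and 565 against 2183, 9637, 154, 7201 and 12887 (-1.87), and the sides overlapped.

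Further genes of the Pou3f3 side each lacked 1 cell. Clcn6, a late endosomal chloride and proton exchanger, was detected in every Pou3f3 cell except P5 B2 (5958 to 13157) and in 0 Reln cells (-4.42). Gpr37, an orphan receptor that is also on the Müller glia list, had signals of 17126, 8026, 15093, 3285 and 518 against a highest Reln cell signal of 559 (-4.38). Rb1, the retinoblastoma protein gene, was detected in every Pou3f3 cell except P5 A6 and in 0 Reln cells (-3.96). Arrb1 (beta-arrestin 1, -3.91), Mpnd (-3.81) and Cited2 (a CBP/p300 binding coregulator, -3.77) were present in the 4 P5 Pou3f3 cells and absent from P4 B4. They differed by 0 between the P4 cells. Each was also detected in 1 Reln cell, Arrb1 (6411) and Cited2 (2673) in P5 C6 and Mpnd (1128) in P5 A7. Vat1 (-3.68), Trappc11 (-3.63), Sltm (-3.61) and Prkcb (protein kinase C beta, -3.67) completed the widest, and for Prkcb the median over probe sets gave -0.30. Among the Reln cells, Vat1 was also detected in P5 A1 (3848), Sltm in P4 A3 (1531) and Prkcb in P5 C6 (11000).

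Transcription factors of amacrine and related neurons had differences in both directions. Of 42 such factors compared, 18 were higher in the Reln cells and 20 in the Pou3f3 cells. A difference of 2 was passed by 4 (9.52%) each way, against 6.61% and 3.80% of all genes, and the median was 0 against 0.09. Meis2, a TALE homeodomain factor, had signals of 1139, 23560, 39685, 14117 and 3985, against 16361 in P5 A6 and at most 70 in the other Pou3f3 cells (4.23). Mean log2 signals of Meis2 were 13.14 ± 2.07 and 8.91 ± 2.84 (SD). Its 3 other probe sets gave 2.71, 5.67 and 5.30. The related Meis1 went the other way with overlap, at 19976, 54, 8044, 4041 and 2834 against 7265, 17943, 10646, 33948 and 41061 (-2.47, or -1.47 without P5 A7). P5 A7 was the 1 cell of 10 without Meis1.

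Lhx9, a LIM homeodomain factor, was detected in 3 Reln cells (P5 A1 22300, P5 A7 31131 and P4 A3 6958), in 0 Pou3f3 cells and in 0 of the 16 others (3.84, but 1.20 after quantile normalization). Prdm8, a PR domain repressor of neuronal development, was at 5888 in P5 A7, 27942 in P5 A8 and 5501 in P4 A3 and detected in 0 Pou3f3 cells (3.36). Nhlh2, a basic helix-loop-helix factor, was detected in P5 A8, C6 and P4 A3 (2.51, or 1.61 without P5 A8). Neurod1, a basic helix-loop-helix factor of amacrine and photoreceptor development, was at 7647, 21622 and 30943 in P5 A2, B2 and P4 B4 and detected in 0 Reln cells (-3.40). The 4 Reln-side factors were thus each absent from at least 4 Pou3f3 cells, while no more than 3 Reln cells carried any 1 of Lhx9, Prdm8 and Nhlh2. Bcl11a, a zinc finger factor, was detected in 3 Pou3f3 cells and 1 Reln cell (-2.77, or -1.57 with the highest probe set in each cell). Nfia, a nuclear factor I gene, was detected in P5 A5 and A6 and in 0 Reln cells (-2.11, or -0.89 without P5 A5).

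Of 10 GABA and glycine genes compared, 6 (60.0%, against 53.2% of all genes) were higher in the Reln cells and 3 in the Pou3f3 cells. A difference of 2 was passed by 3 (30%, against 6.61%) in the direction of the Reln cells and by 0 (against 3.80%) in the other, with a median of 1.15 against 0.09. Without P5 A6, 9 were higher in the Reln cells and 0 in the Pou3f3 cells, 3 again passed a difference of 2, and the median fell to 0.65. Gad1, the larger glutamate decarboxylase, had signals of 11680, 8089, 20606, 16150 and 6304 in the Reln cells and 59, 28786, 2471, 9423 and 27313 in the Pou3f3 cells. The Gad1 difference was 1.15, or -0.02 without P5 A2, and -2.12 between the P4 cells. P5 A2 was the 1 cell without it, and the sides overlapped. Gad2, the second decarboxylase, had signals of 3516, 1213, 9559, 8878 and 4929, against 4322 in P5 B2 and at most 730 in the other Pou3f3 cells (3.22). Slc6a11, the GABA transporter GAT3, had signals of 3974, 2910, 11751, 3762 and 5076, against 10018 in P5 B2 and at most 462 in the others (3.22). Mean log2 signals of Gad2 were 12.13 ± 1.21 and 8.90 ± 1.95 (SD). P5 B2 was thus the 1 Pou3f3 cell with both Gad2 and Slc6a11.

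Slc32a1, which loads GABA or glycine into vesicles, was detected in 5 Reln cells and in P5 A2, A5 and P4 B4 among the Pou3f3 cells. Its difference was 1.14, and -0.99 between the P4 cells. Another probe set of Slc32a1 gave -0.73, detected in 3 Reln and 4 Pou3f3 cells. Slc38a2, a neutral amino acid transporter that carries glutamine, was detected in 3 Reln cells and 0 Pou3f3 cells (3.11, or 1.96 with the median over probe sets). Slc6a9, the glycine transporter GlyT1, was detected in 13 of the 16 other cells but in 1 of the 10, P5 A6 at 15300, which also had Gad1. Slc6a5, the neuronal glycine transporter GlyT2, was detected in 0 of the 10. For 1 side, a count of 0 of 5 cells allows a share of up to 60%, as 3 counts of 5, or 52.2% by the exact 95% interval.

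**Figure D4:**
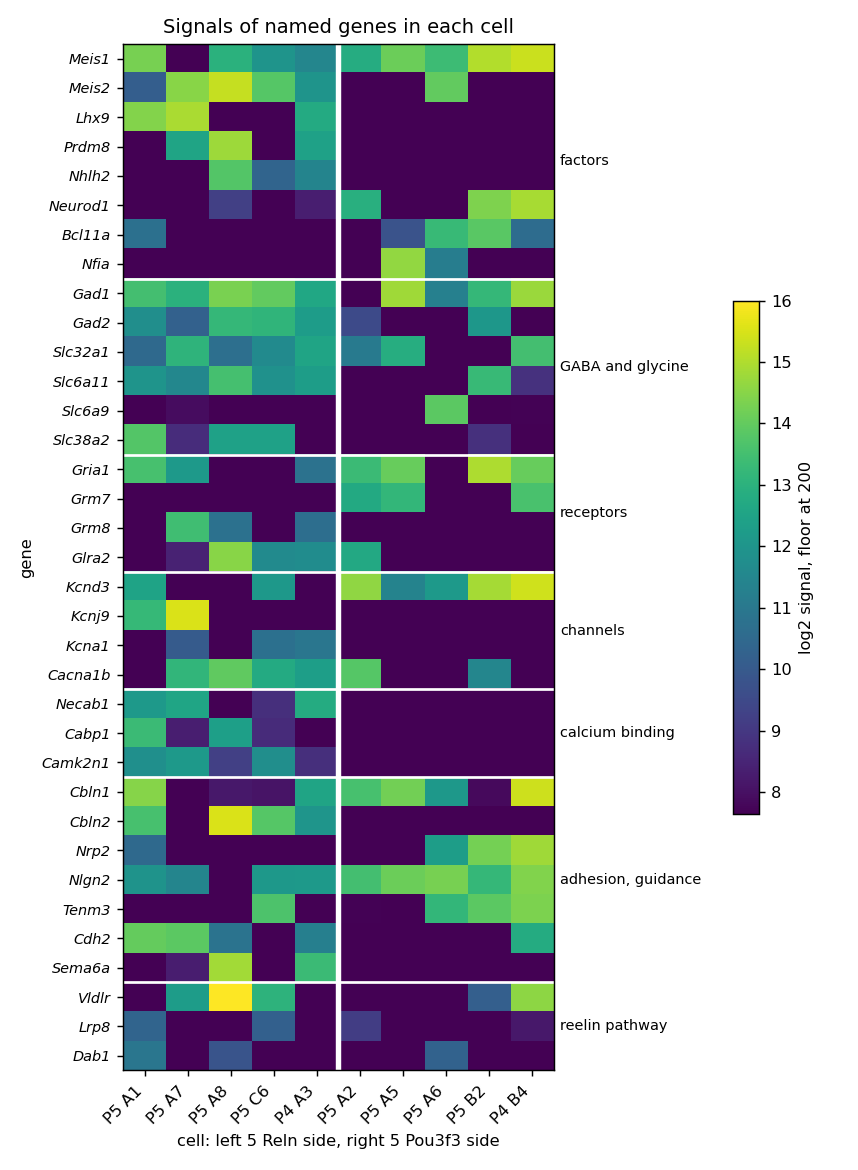
Log2 signal (floor at 200) of named genes, in rows, in the 5 Reln and 5 Pou3f3 cells, in columns, as a colour scale. The Gad2 and Slc6a11 rows are filled across the Reln cells and in P5 B2, and the Kcnd3 row across the Pou3f3 cells and in P5 A1 and C6.

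Of 26 reelin pathway genes compared besides Reln, 17 (65.4%, against 53.2% of all genes) were higher in the Reln cells. In the Pou3f3 cells 8 were higher (30.8%, against 40.9%). A difference of 2 was passed by 0, against 6.61% and 3.80% of all genes, and the median was 0.46 against 0.09. Without P5 A6, 2 passed, both higher in the Reln cells (7.69%, against 7.28% of all genes). Vldlr, a reelin receptor, had signals of 21, 4953, 74737, 8507 and 65 in the Reln cells and 148, 51, 67, 1147 and 24312 in the Pou3f3 cells (1.83). Cells with high Vldlr occurred on both sides, and the difference between the P4 cells was -6.93. Other probe sets of Vldlr gave 2.05 (detected in 2 Reln and 0 Pou3f3 cells), -0.97 (1 and 3) and 0. Lrp8, the other receptor, was detected in P5 A1 (1297) and C6 (1174) and in 0 Pou3f3 cells (0.63). Dab1, the adaptor, was detected in P5 A1 (1950) and P5 A6 (1233), 1 cell on each side (0.56), against 11 of the 16 other cells.

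The Src family kinases Fyn (0.19) and Src (-0.34) and the adaptor Crk (0.17) were detected on both sides. Cdk5r1, the activator of Cdk5, and Pafah1b1, the lissencephaly gene, were each detected in all 10 cells, with differences of 1.26 and 0.77. Rnf7, which with Cul5 forms the ligase that degrades active Dab1, was detected in 4 Reln cells and 1 Pou3f3 cell (1.93). Lrpap1, the chaperone of lipoprotein receptors, gave 1.83, with detection in 2 and 1 cells. Its other probe sets gave 1.36 (2 and 1 cells), -1.31 (3 and 3) and -1.16 (2 and 3). Mapt, the microtubule protein tau, was detected in 4 cells of each side (-1.16). The signals of the 26 genes overlapped between the sides without exception.

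Adhesion and guidance genes as a group lay near the background: of 62 compared, 36 (58.1%, against 53.2% of all genes) were higher in the Reln cells and 19 in the Pou3f3 cells, and 4 (6.45%, against 6.61% and 3.80%) passed a difference of 2 each way. The median was 0.19. Nlgn2, the postsynaptic adhesion protein of inhibitory synapses, had signals of 3944, 2762, 157, 4425 and 4453 against 11627, 17661, 20051, 9481 and 21895 (-2.86), with no overlap. Of all genes compared, 14 (0.163%) had every Reln cell above every Pou3f3 cell, and 16 (0.187%) the reverse. Cbln1, the paralogue of Cbln2, was at 12206, 19159, 4400 and 41855 in P5 A2, A5, A6 and P4 B4, at 22908 and 5855 in P5 A1 and P4 A3, and detected in 0 of the 16 others (-2.44).

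Nrp2, a semaphorin receptor, was detected in P5 A6, B2 and P4 B4 and in P5 A1 (-3.11, or -1.32 with the median over probe sets). Tenm3, a teneurin of synaptic matching, was detected in the same 3 Pou3f3 cells and in P5 C6 (-2.51). Cdh2 (N-cadherin) was detected in every Reln cell except P5 C6 and in P4 B4 (2.85). Plxna1, a semaphorin coreceptor, was detected in 4 Reln and 2 Pou3f3 cells (2.81). Sema6a, a transmembrane semaphorin, was at 29147 in P5 A8 and 10472 in P4 A3 and detected in 0 Pou3f3 cells (2.71, or 1.59 without P5 A8).

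Receptor and channel genes also had differences in both directions. Of 11 glutamate receptor genes compared, 4 were higher in the Reln cells and 7 in the Pou3f3 cells, with a median of -0.72. A difference of 2 was passed by 1 (9.09%, against 6.61% of all genes) and 2 (18.2%, against 3.80%). Grm7, a presynaptic group III metabotropic receptor, was at 6746, 9211 and 12470 in P5 A2, A5 and P4 B4 and detected in 0 Reln cells (-3.31). Grm8, of the same group, was instead at 11136, 1748 and 1612 in P5 A7, A8 and P4 A3 and detected in 0 Pou3f3 cells (2.39, or 1.53 without P5 A7). Gria1, an AMPA receptor subunit, was detected in 3 Reln and 4 Pou3f3 cells (-2.45, or -3.74 without P5 A6, -1.77 without P5 C6 and -1.37 over P5 cells with no culture stated). Glra2, a glycine receptor subunit, was the 1 of 10 GABA and glycine receptor genes (10.0%, against 6.61% of all genes) past a difference of 2. Its difference was 2.14, or 1.21 without P5 A8 and 1.30 over P5 cells with no culture stated.

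Kcnd3, the A-type potassium channel subunit Kv4.3, had signals of 5726, 16, 15, 4431 and 9 in the Reln cells and 25032, 2667, 4641, 30200 and 43449 in the Pou3f3 cells (-4.19). All 5 Pou3f3 cells had Kcnd3, and P5 A1 and C6 of the Reln cells overlapped with them. Of 18 potassium channel genes compared, 2 (11.1%, against 6.61% of all genes) passed a difference of 2 in the direction of the Reln cells. They were Kcnj9 (2.70, or 1.40 without P5 A7) and Kcnab1 (2.03, or 0.82 without P5 A8). Kcnd3 alone passed in the other direction (5.56%, against 3.80%). Of 18 sodium and calcium channel genes, 10 were higher in the Reln cells and 7 in the Pou3f3 cells, and 3 (16.7%, against 6.61% of all genes) passed a difference of 2, each higher in the Reln cells: Cacna1b (2.33, or 1.83 without P5 A5 and 1.45 over P5 cells with no culture stated), Cacna1a (2.24, or 1.38 without P5 A1) and Scn3a (2.10, or 1.35 without P5 A8 and 1.23 without P5 A7).

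Of 17 calcium-binding and CaM kinase inhibitor genes compared, 11 were higher in the Reln cells and 4 in the Pou3f3 cells, with a median of 0.39. A difference of 2 was passed by 4 (23.5%, against 6.61% of all genes) in the direction of the Reln cells and by 0 (against 3.80%) in the other. Camk2n1, an inhibitor of CaM kinase II, had signals of 3565, 4446, 604, 3522 and 434 against at most 55 in the Pou3f3 cells (3.10), so the sides did not overlap, although P5 A8 and P4 A3 were below detection. Its difference was 5.07 with a floor of 50 and 1.82 with a floor of 500. Necab1, a neuronal calcium-binding protein, was at 4473, 6076 and 7087 in P5 A1, A7 and P4 A3 and detected in 0 Pou3f3 cells (3.13). Cabp1, a calmodulin-like protein, was detected in P5 A1 and A8 (2.43, or 1.61 without P5 A1 and 1.55 with a floor of 500). Camk2n2 was detected in P5 A8 and P4 A3 (2.29, or 1.65 without P4 A3, 1.52 over P5 cells with no culture stated and 1.49 with a floor of 500).

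Among 30 presynaptic genes compared, 19 were higher in the Reln cells and 11 in the Pou3f3 cells. A difference of 2 was passed by 2 (6.67%) each way, against 6.61% and 3.80% of all genes. Syt5, a calcium sensor of exocytosis, was at 2529, 20598, 2914 and 3677 in every Reln cell except P5 A1 and detected in 0 Pou3f3 cells (3.68). Syt4, a related synaptotagmin, was at 4122, 33844, 13157, 23657 and 1424 in the Pou3f3 cells and at 2285, 114, 203, 4062 and 7760 in the Reln cells (-2.87). The active zone scaffolds Bsn (2.14) and Pclo (-2.62) had opposite signs, but with the median over probe sets they gave 0.79 and -0.74. Genes of young neurons were evenly divided, with 15 of 29 higher in the Reln cells and 14 in the Pou3f3 cells and a median of 0.11 against 0.09. Of these, 3 (10.3%, against 6.61% of all genes) passed a difference of 2, each higher in the Reln cells: Elavl4 (3.06), Gap43 (2.56) and Tubb3 (2.03, or 0.91 without P5 A6). Chgb, a granule protein, was the 1 of 10 neuropeptide list genes (10.0%, against 6.61% of all genes) past a difference of 2. Its difference was 2.40, or 1.53 without P5 B2, and 1.53 without P5 A5. Tac1, the substance P precursor, was detected in P5 A7 alone of the 10 (63687), and Cartpt in P4 A3 (40548) and P5 A5 (63355).

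Of 15 stress and immediate early genes compared, 7 were higher in the Reln cells and 6 in the Pou3f3 cells, with a median of 0. A difference of 2 was passed by 4 (26.7%, against 6.61% of all genes) in the direction of the Reln cells and by 1 (6.67%, against 3.80%) in the other. The 4 were Gadd45a (3.05), Ddit3 (2.78, or 1.99 without P5 A7), the chaperone Hspa5 and Dnaja1. Hspa5 gave 2.65, or 1.97 without P5 A7, and -2.74 between the P4 cells. Dnaja1 gave 2.02, or 1.11 without P5 A6 and 0.08 with the highest probe set in each cell. The 1 in the other direction was Gadd45g (-2.07, or -1.38 without P5 A6 and -3.26 without P5 A8). Xbp1, Ddit3 and Hspa5 are known as genes of the endoplasmic reticulum stress response, and a shared change in them was not tested. Ddit3 was detected in P5 A7, C6 and P4 A3, and Hspa5 in every Reln cell except P5 A8 and in P4 B4. Of 16 genes of hypoxia and glycolysis, 8 were higher on each side. A difference of 2 was passed by 2 (12.5%, against 6.61% of all genes) in the direction of the Reln cells. In the other direction it was passed by 1 (6.25%, against 3.80%). Slc2a1, the glucose transporter GLUT1, had signals of 17456, 20212, 43166, 2321 and 11139, against 9813 and 18367 in P5 A2 and P4 B4 and at most 339 in the other Pou3f3 cells (3.46). Hk1, a hexokinase, gave 2.12. Pdk1, a kinase that inhibits pyruvate dehydrogenase, was detected in P5 A6 and B2 alone, and the median over its probe sets gave 0.0070. Among reference genes, B2m was the 1 of 10 (10.0%, against 6.61% of all genes) past a difference of 2 (2.20, or 1.41 with a floor of 500). Of 15 rod list genes compared, 2 (13.3%, against 53.2% of all genes) were higher in the Reln cells. In the Pou3f3 cells 10 were higher (66.7%, against 40.9%), and without P5 A6 the counts were 3 and 7. A difference of 2 was passed by 1 (6.67%) each way, against 6.61% and 3.80% of all genes. Cngb1, a rod channel subunit, passed in the direction of the Reln cells (2.38, or 1.15 without P5 A7). Unc119, a lipid-binding trafficking protein, passed in the other (-3.50, detected in the 4 P5 Pou3f3 cells and in P5 C6).

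Across all 26 cells the genes detected most nearly with Reln, by the phi coefficient of detection among genes detected in at least 3 cells, were Jam3 (0.80), Plppr5 (0.75), Kcna1, Lhx9 and Nit2 (0.74 each). Those nearest Pou3f3 were Pantr1 (0.87), Ptprm (0.75), Gh (0.74), Snx27 (0.67) and Cbfa2t3 (0.66). Ties put 8 genes at or above the fifth place in each case. Gh lay close to the detection level, at 2608, 1244, 578, 1036 and 696 in the Pou3f3 cells. Its highest signals were 627 in the Reln cells and 952 in the 16 others. The other Gh probe sets gave -0.63, -0.51 and -0.03, detected in 0, 1 and 0 Pou3f3 cells. Ptprm, a receptor tyrosine phosphatase, was detected in every Pou3f3 cell except P5 A5 and in P5 A1, and in 0 of the 16 others. Plppr5, a lipid phosphatase-related protein, was detected in every Reln cell except P5 C6, in P5 A5, and in 0 of the others. These coefficients describe 26 cells that share arrays of 1 design and differ in the number of genes detected.

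With the sides pooled, the median correlation of whole profiles within a side was lower by 0.0093 than that between sides. The Reln pairs had a higher median than the pairs between sides, and the Pou3f3 pairs a lower one. Spearman correlations across the 8568 genes, which are not independent replicates, had a median of 0.331 (0.288 to 0.382) over 10 pairs of Reln cells, 0.291 (0.262 to 0.339) over 10 pairs of Pou3f3 cells and 0.307 (0.260 to 0.354) over 25 pairs between the sides. Among P5 cells with no culture stated the medians were 0.299, 0.290 and 0.285. There the pooled median within a side was higher by 0.0057 than that between sides. The closest cell lay on the same side for 5 of 5 Reln cells and for 1 of 5 Pou3f3 cells, P5 A2. For each Reln cell the closest was P5 C6 or P4 A3, which had the most genes detected of the 10 cells (3925 and 3418). For 5 of the 10 cells the closest was P5 C6. The part of culture and of the number of genes detected was not tested.

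**Figure D5:**
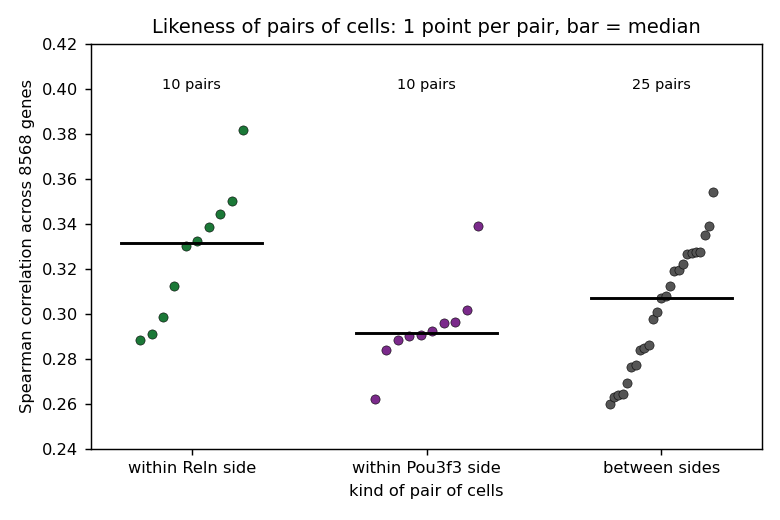
Spearman correlation across 8568 genes for each pair of the 10 cells, 1 point per pair, by kind of pair. The ranges overlap: 0.288 to 0.382 within the Reln side, 0.262 to 0.339 within the Pou3f3 side and 0.260 to 0.354 between sides.

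The P4 cells gave 1 pair, P4 A3 and P4 B4. Of the 178 split genes of the Reln side, 151 had the same sign in that pair and 26 the opposite sign, and of the 47 of the Pou3f3 side 37 had the same sign and 4 the opposite. These cells had taken part in choosing the split genes, so the counts are a description. Among cells of the P5 group with no culture stated, the differences were 5.10 for Qars, 4.09 for Meis2, 2.53 for Gad2, -5.15 for Pantr1 and -5.11 for Trim9. In the P4 pair they were 5.94, 4.32, 4.62, -6.69 and -2.55.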

How the data were processed

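Single-cell cDNA from 26 cells was measured on 1 array each. The deposited values are MAS5 signals, a linear intensity per probe set made by the authors (MAS5 per the submitters' processing notes, version not given in the sources used here). The 2% trimmed mean of each array lay between 500 and 500.01, so no rescaling was applied. Array signals carry no read depth, and the number of cells limits the precision. Of 45101 probe sets, 64 controls were left out and 34945 had 1 gene symbol in the platform annotation, 932 several and 9160 none, giving 18193 genes. Cells were sided by the detection of Reln and Pou3f3. The sides, and all 28 gene lists (598 of 655 genes measured), were chosen with earlier results of these data known. Genes named are those with a complete split, the 12 widest split genes each way, members of the reelin, POU and GABA lists, up to 5 members past a 4-fold difference in each direction of other lists, and the 5 nearest partners. Tac1, Cartpt and the marker genes of the cell type check were named outside this rule, after their values were seen. Shares have exact 95% intervals, and the limit beside a count of 0 is 3 counts over the number of cells, an approximation given with the exact limit. Detection level, floor, probe set choice, normalization, gene filter and cells were varied. The procedure was tested on simulated data. The work used scipy 1.17.1, pandas 2.3.3 and numpy 2.4.6 under Python 3.11.15, with plots by matplotlib 3.10.9.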

Additional observations from a re-analysis of the deposited data

Results flagged for a closer look

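Among the named genes, 61 sets of 5 signals on 1 side held a cell far from the other 4, out of 202 sets looked at, on 52 genes. The measure is the gap to the nearest cell over the whole range of the 5 log2 signals, and a share above Dixon's 95% critical value for 5 samples was taken as far. Chance alone puts about 1 in 20 sets past this level. Signals held at the floor make a share of 1 common, since the other 4 cells are then equal. Many named genes were also chosen as split, which allows 1 cell out of place on each side. The number of sets found therefore cannot be set against 1 in 20. In 50 sets the cell was high and in 11 low. P5 A1 stood apart as high for Bcl11a and Nrp2 (share 1 each), Vat1 (0.736), Rapgef1 (0.74) and Gsk3b (0.805) and as low for Cacna1b (0.742). P5 A7 stood apart as high for Trim9, Gpr37, Mpnd and Cbfa2t3 (share 1 each) and Cdk5 (0.715). P5 A8 stood apart as high for Gadd45g (share 1) and as low for Hacd1 (0.715) and Nlgn2 (0.846). P5 C6 stood apart as high for Cited2, Prkcb, Tenm3 and Unc119 (share 1 each), Arrb1 (0.869) and Trappc11 (0.861). P4 A3 stood apart as high for Pik3r1, Efnb2 and Pclo (share 1 each), Sltm (0.992) and Cul5 (0.928). P5 A2 stood apart as high for Xbp1, Pik3r2, Glra2 and Gadd45a (share 1 each) and Limk1 (0.958). P5 A5 stood apart as high for Cdv3, Cdk5 and Plppr5 (share 1 each), Crkl (0.875), Rapgef1 (0.96), Lrpap1 (0.965) and Gap43 (0.932) and as low for Pafah1b2 (0.737). P5 A6 stood apart as high for Dab1, Pik3r1, Meis2 and B2m (share 1 each), Slc6a9 (0.992) and Hk1 (0.731) and as low for Pantr1 (0.803) and Gria1 (0.775). P5 B2 stood apart as high for Qars, Slc38a2 and Nit2 (share 1 each) and Slc6a11 (0.786) and as low for Clcn6 (0.811). P4 B4 stood apart as high for Ufc1, Efnb2, Cdh2 and Hspa5 (share 1 each), Pnisr (0.783) and Cul5 (0.826) and as low for Arrb1 (0.796), Cited2 (0.876), Unc119 (0.808) and Cbfa2t3 (0.866).

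Of 119 named genes, 24 had opposite signs in the P4 pair and in the P5 cells with no culture stated. Among these, 4 had no overlap between the sides within those P5 cells. The P4 differences, as the Reln cell minus the Pou3f3 cell, were -0.61 for Pnisr, 2.45 for Syt4, -1.56 for Cdh2 and -0.722 for Slc2a1. Over the P5 cells they were 5.71, -4.99, 5.28 and 5.36 in the same order. The difference between ages was not tested, and the P4 cells also differ from these P5 cells in the culture stated.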

How the results depend on the processing

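The same 5 and 5 cells made up the sides with detection at 500 or 2000, both other probe set rules and quantile normalization. Genes past the 4-fold difference, 566 higher in the Reln cells and 326 in the Pou3f3 cells, numbered 362 and 196 with the median over probe sets, 1140 and 630 with a floor of 50, 232 and 144 with a floor of 500, and 1143 and 542 by medians over cells. Over P5 cells with no culture stated, the counts were 775 and 659. Split genes, 178 and 47, numbered 702 and 363 over those P5 cells, and the Pou3f3 count was 108 after quantile normalization. Complete splits, 6 and 1, numbered 30 and 10 over those P5 cells. For complete splits the Reln count was 1 with detection at 2000 and 3 when probe sets were summarised by their median. The Pou3f3 count was 0 with detection at 500 or 2000 or with scaling to the 75th percentile, and 2 after quantile normalization. Fewer cells loosen both detection criteria by construction; the cause of the other changes was not tested. Without P5 C6 and P5 A6, a choice made after seeing the data, there were 545 genes past the difference in the Pou3f3 direction, 394 and 234 splits and 16 and 8 complete splits. Leaving out each cell in turn gave 567 to 769 and 293 to 467 genes past the difference, 228 to 449 and 61 to 129 splits, and 8 to 17 and 1 to 6 complete splits. The median correlation within sides minus that between sides was -0.0093, and -0.0165 to 0.0064 without 1 cell. Over P5 cells with no culture stated it was 0.0057. Of 82 named genes past the difference, most named for wide differences in these cells, 52 stayed past it whichever cell was left out. Direction turned for Pnisr (-1.53) and Pdk1 (0.0070), both with the median over probe sets, where Pnisr's other probe sets are all negative; for Pdk1 the cause was not tested. No paired analysis was possible because no test was run and the labels tie no cell of 1 side to a cell of the other.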
